A study of Homo sapiens with 18 samples.

Results

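The 10 genes described here belong to the bone morphogenetic protein (BMP) pathway: the SMAD target genes ID1, ID2, ID3 and ID4, the feedback inhibitors SMAD6, SMAD7 and BAMBI, the extracellular antagonists FST and FSTL1, and the ligand BMP2. They were chosen by name out of 19775 genes with a probe set of their own on the array, and each gene was read by the probe set with the highest mean over all 18 arrays. Of these 10 genes, 9 were among the 12171 genes tested, and SMAD6 was left out by the filter on low values, so it is described apart.

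BMP ligands bind type I and type II receptors at the cell surface, and the activated type I receptor phosphorylates SMAD1, SMAD5 and SMAD9, which enter the nucleus with SMAD4. There they switch on ID genes, whose products bind the E protein transcription factors and keep them off DNA, and also the genes of inhibitors that limit the pathway at the receptor. In the breast, BMP ligands carry signals between the stroma and the epithelium.

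Gene expression was measured in 3 lines of MCF10A, an immortalised nonmalignant human mammary epithelial cell line. M1B26 was derived from MCF10A cells sorted for the BMP receptor BMPR1B and exposed to recombinant human BMP2 and IL6, with 3 soft-agar clones selected and expanded. MC26 was derived from MCF10A cells, with no such sort, by long exposure to the same factors, and MCF10A-CT was kept in standard medium without them. The medium of M1B26 and MC26 held BMP2 at 5 ng/ml by one label and 10 ng/ml by another, and IL6 at 10 ng/ml. Each line was profiled as CD10+ and CD10- cells, sorted by flow cytometry on membrane CD10, and as cells that were not sorted. Each of these 9 groups had 2 arrays, called biological replicates in the labels. Because each line was derived once and both factors were given together, the effects of BMP2, IL6, the BMPR1B sort and clonal selection cannot be told apart.

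Values are linear array intensities, scaled by the authors to the same median of 16.65 on every array, and differences are given on the scale of log2(intensity + 1) with their SE. A gene was called when its Benjamini-Hochberg adjusted p from limma, taken over all 12171 genes of a comparison, was under 0.05. Genes with a mean at or under an intensity of 14.3 were treated as near background. Arrays of a group correlated at 0.937 to 0.954 over all probe sets, against 0.901 to 0.957 over all pairs of arrays. KRT5, a keratin of basal mammary epithelium, lay between 3776 and 7924 on every array, and the leukocyte marker PTPRC and the endothelial markers CDH5 and VWF were near background in all 9 groups. CD3E, the other leukocyte marker read, was above the filter in CD10- M1B26, CD10+ MC26 and CD10+ MCF10A-CT cells. The endothelial marker KDR was above it in unsorted M1B26 cells only. KRT14, the other tested basal keratin, was higher than in MCF10A-CT in both M1B26 (1.40 ± 0.32, adjusted p = 0.00443) and MC26 (2.11 ± 0.32, adjusted p = 0.000383). PECAM1, a further endothelial marker, was above the filter in all 9 groups, with averages of -0.30 ± 0.18 in M1B26 and -0.12 ± 0.18 in MC26 (adjusted p = 0.212 and 0.665). MME, which encodes CD10 and checks the sort, averaged 1145 in CD10+ and 36.2 in CD10- M1B26 cells, 80.3 and 17.1 in MC26, and 56.7 and 10.5 in MCF10A-CT. BMPR1B was not higher in M1B26 than in MCF10A-CT, with an average difference of -0.32 ± 0.15 (adjusted p = 0.122).

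Promoter windows from 250 bases before to 50 bases after the annotated start were taken from RefSeq (GRCh38.p14) for 9 of the 10 genes, with BMP2 missing. They are shown for ID1, FSTL1 and BAMBI, the members that differed between the lines, written 5′ to 3′ along the gene. Capitals mark the GC-rich element GGCGCC, known to be bound by SMAD1 and SMAD5, and the SMAD4 element GTCTG or CAGAC, searched on both strands and without any overlap of the 2 elements in these windows.
ID1: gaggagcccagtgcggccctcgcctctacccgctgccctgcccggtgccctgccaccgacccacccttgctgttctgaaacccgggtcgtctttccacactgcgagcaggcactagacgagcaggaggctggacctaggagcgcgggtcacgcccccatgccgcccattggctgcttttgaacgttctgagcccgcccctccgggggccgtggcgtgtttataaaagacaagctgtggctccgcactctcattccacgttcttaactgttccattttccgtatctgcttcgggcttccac
FSTL1: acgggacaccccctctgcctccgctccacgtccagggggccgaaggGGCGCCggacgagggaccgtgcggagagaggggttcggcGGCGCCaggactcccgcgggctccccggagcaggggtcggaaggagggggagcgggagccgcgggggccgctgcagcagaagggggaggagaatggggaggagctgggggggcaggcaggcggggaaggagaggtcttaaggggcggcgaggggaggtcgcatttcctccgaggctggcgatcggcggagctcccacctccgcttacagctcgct
BAMBI: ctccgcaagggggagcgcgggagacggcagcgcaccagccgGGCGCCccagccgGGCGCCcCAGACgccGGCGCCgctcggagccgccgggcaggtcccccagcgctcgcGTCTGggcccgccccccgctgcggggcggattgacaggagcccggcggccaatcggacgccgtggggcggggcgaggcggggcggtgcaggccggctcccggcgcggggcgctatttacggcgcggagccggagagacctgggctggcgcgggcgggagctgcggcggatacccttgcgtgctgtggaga
The windows lie at chr20:31605039-31605338 on the plus strand for ID1, chr3:120450943-120451242 on the minus strand for FSTL1 and chr10:28677271-28677570 on the plus strand for BAMBI. BAMBI held 3 GC-rich and 2 SMAD4 elements, FSTL1 held 2 GC-rich elements and no SMAD4 element, and ID1 held neither. Over all 35116 windows of this length, 19.2% held a GC-rich element, 45.3% a SMAD4 element and 7.87% both. Of the 9 members with a window, 2 held a GC-rich element and 4 a SMAD4 element (ID3, ID4, SMAD7 and BAMBI). These matches describe letters in the windows only.

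Averaged over the 3 populations, ID1 and FSTL1 were higher in both exposed lines than in MCF10A-CT, BAMBI was lower in M1B26, and FSTL1 was higher in M1B26 than in MC26. In M1B26 against MCF10A-CT, 2 of 9 members passed upwards and 1 downwards, where 34.6% of all tested genes passed. For MC26 against MCF10A-CT, 2 of 9 members passed upwards, where 31.2% of all genes did. Between M1B26 and MC26, 1 of 9 members passed, where 8.09% of all genes did. Over all arrays the MC26 differences of ID2, ID3 and SMAD7 from MCF10A-CT were 0.91, 1.36 and 0.46 and did not pass. Leaving out each array in turn, they ranged from -0.025 to 1.85, from 0.50 to 2.21 and from 0.22 to 0.71. The highest value of each range was that without unsorted MC26 replicate 1. The shares over all arrays were close to those of genes at large, and the median member difference was 0.12 in M1B26 and 0.46 in MC26 against MCF10A-CT, with 0.19 and 0.08 for all tested genes. Same-numbered CD10+ and CD10- arrays of a line deviated together, so the 6 arrays behind a line's average were not wholly independent.

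**Figure D1:**
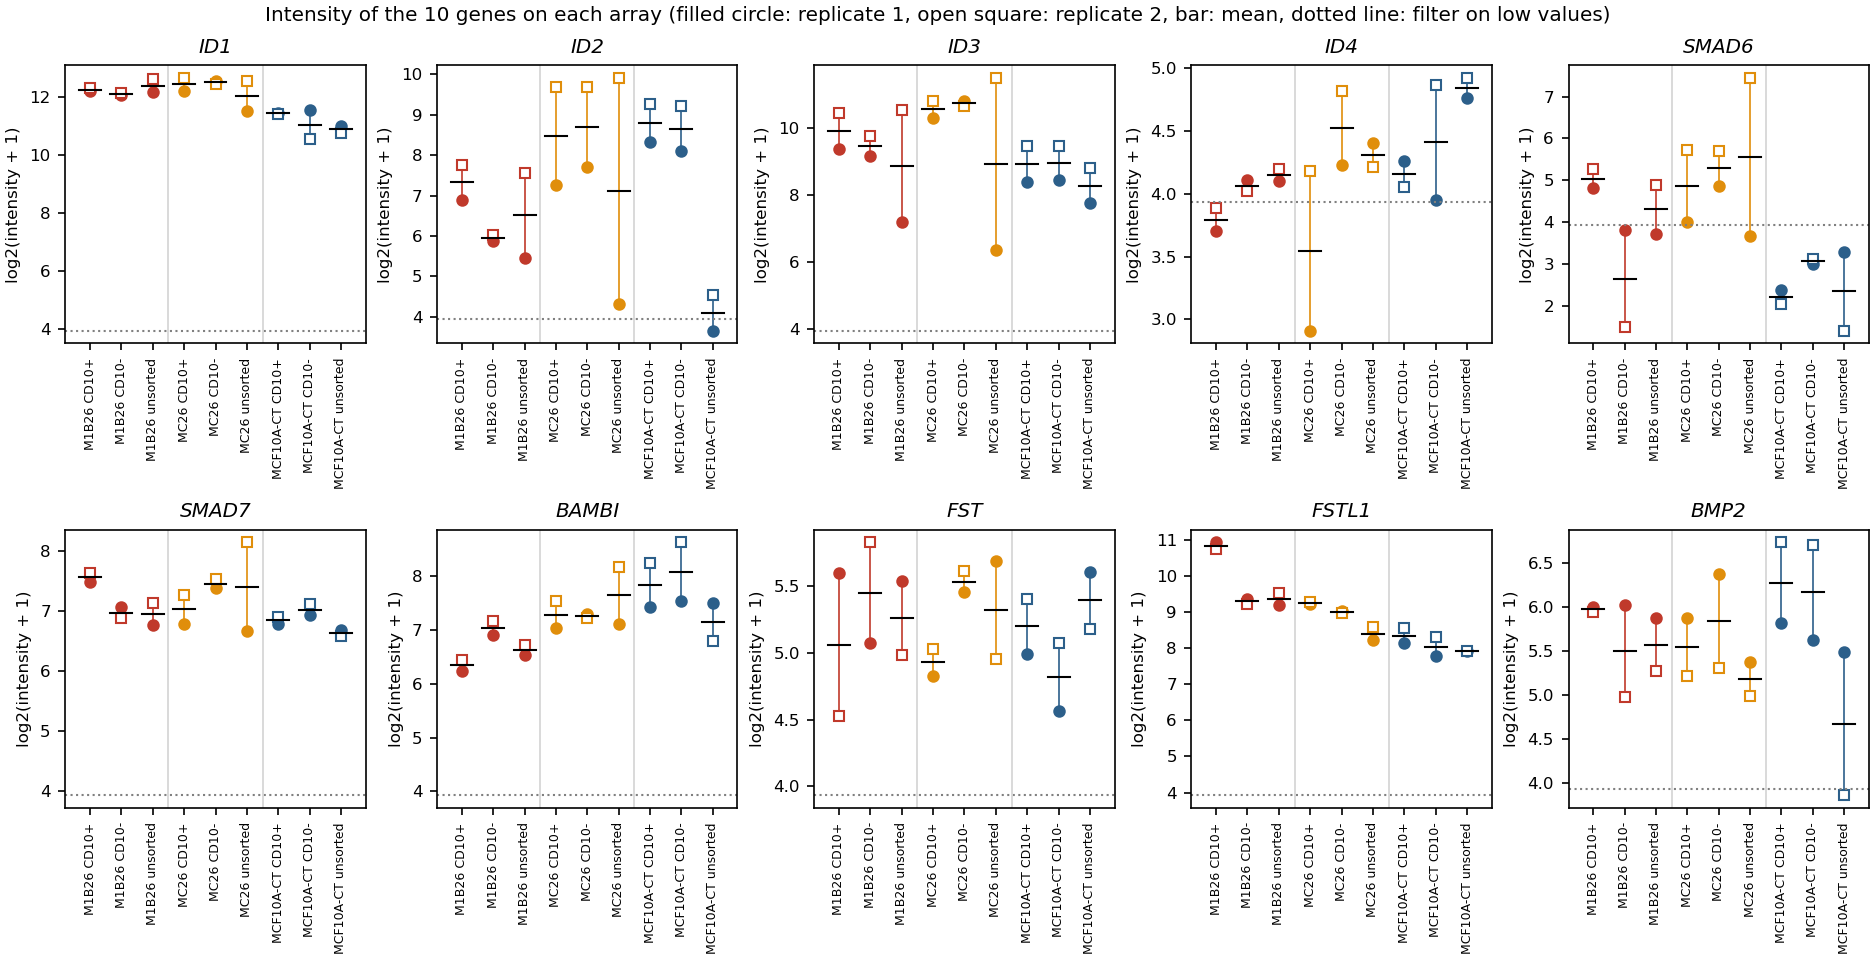
Intensity of the 10 genes as log2(intensity + 1), 1 panel per gene, over the 9 groups, with a filled circle for replicate 1, an open square for replicate 2, a bar for their mean (n = 2) and a dotted line at the filter on low values. ID1 and FSTL1 lie higher in M1B26 and MC26 than in MCF10A-CT, and ID2 and ID3 show the gap between the 2 unsorted MC26 arrays, 18.7 and 965 for ID2.

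ID1, which encodes an inhibitor of basic helix-loop-helix factors and is among the most direct BMP target genes, was higher in both exposed lines, 2.18-fold in M1B26 and 2.31-fold in MC26. In CD10+ cells its intensity was 4697 and 5035 in M1B26, 4777 and 6467 in MC26, and 2820 and 2741 in MCF10A-CT. CD10- cells had 4256 and 4507 in M1B26, 6059 and 5552 in MC26, and 2982 and 1489 in MCF10A-CT. Unsorted cells had 4572 and 6279 in M1B26, 2938 and 6067 in MC26, and 2038 and 1737 in MCF10A-CT. All 6 M1B26 arrays lay above all 6 MCF10A-CT arrays, whereas 1 unsorted MC26 array, with 2938, fell within the MCF10A-CT range. The average difference was 1.12 ± 0.18 for M1B26 (adjusted p = 0.000478) and 1.21 ± 0.18 for MC26 (adjusted p = 0.000351), and both held without any 1 array. Between M1B26 and MC26 the difference was -0.08, with a 95% interval from -0.47 to 0.30 (adjusted p = 0.843).

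Within single populations ID1 was higher in every comparison and passed in 4 of 6. Among CD10+ cells the difference was 0.81 ± 0.31 in M1B26 (adjusted p = 0.0683) and 1.00 ± 0.31 in MC26 (adjusted p = 0.047). CD10- cells differed by 1.05 ± 0.31 in M1B26 (adjusted p = 0.0232) and by 1.46 ± 0.31 in MC26 (adjusted p = 0.00585). In unsorted cells it was 1.51 ± 0.31 for M1B26 (adjusted p = 0.0381) and 1.17 ± 0.31 for MC26 (adjusted p = 0.179). With 2 arrays a group these single calls rested on each array: without any 1 of the 4 arrays the adjusted p was 0.0788 to 0.263 in CD10+ MC26 and 0.0917 to 0.385 in unsorted M1B26. Of the CD10- calls, that of M1B26 was lost without M1B26 replicate 1 or 2 (adjusted p = 0.092 and 0.0896) or MCF10A-CT replicate 2 (0.55, adjusted p = 0.291). The CD10- MC26 call was lost without MC26 replicate 1 (adjusted p = 0.0542) or MCF10A-CT replicate 2 (0.96, adjusted p = 0.0992), while unsorted MC26 passed without its replicate 1 (1.69, adjusted p = 0.0146).

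ID2 and ID3, close relatives of ID1, were called in no comparison of the lines in the fit of all 18 arrays and varied widely between the 2 arrays of a group. ID2 had 118 and 215 in CD10+ M1B26, 152 and 822 in CD10+ MC26, and 319 and 614 in CD10+ MCF10A-CT cells. CD10- cells had 57.2 and 64.3 in M1B26, 209 and 820 in MC26, and 272 and 599 in MCF10A-CT. Unsorted cells had 43.1 and 188 in M1B26, 18.7 and 965 in MC26, and 11.6 and 22.1 in MCF10A-CT. The low unsorted MCF10A-CT arrays stood far under the sorted ones of the same line, and the 2 unsorted MC26 arrays spanned nearly the whole range of the gene. The ID2 averages did not pass, at -0.59 ± 0.74 in M1B26 (adjusted p = 0.569) and 0.91 ± 0.74 in MC26 (adjusted p = 0.376). Without unsorted MC26 replicate 1 the MC26 average was 1.85 (adjusted p = 0.0121), and without replicate 2 it was -0.03. The difference of M1B26 from MC26 was -1.50 ± 0.74 (adjusted p = 0.25). Leaving out each array in turn, it ranged from -2.43, without unsorted MC26 replicate 1, to -0.56.

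The direction of ID2 against MCF10A-CT differed by population. In M1B26 it was -1.47 among CD10+ and -2.72 among CD10- cells, and 2.42 among unsorted cells, with none of the 3 passing in the fit of all arrays (adjusted p = 0.422, 0.129 and 0.796). The CD10- difference passed with the replicate number as a block (adjusted p = 0.0323), and with only the arrays compared it (adjusted p = 0.00182) and the CD10+ difference (adjusted p = 0.0373) passed. In sorted against unsorted cells of MCF10A-CT, ID2 was higher by 4.64 ± 1.11 (adjusted p = 0.00963) and BMP2 by 1.54 ± 0.48 (adjusted p = 0.0333), 2 of 9 members where 22.2% of all genes passed. Sorting, staining, handling and any separate preparation of the unsorted cells cannot be told apart there. The line difference among sorted cells minus that among unsorted cells was -4.51 ± 1.57 in M1B26 for ID2 and did not pass (adjusted p = 0.0715), and these sorted against unsorted comparisons were chosen after the values were seen. A second ID2 probe set gave averages of -0.32 in M1B26 and 0.95 in MC26 (adjusted p = 0.775 and 0.363). It is of a type that can bind related transcripts, and its mean log2(intensity + 1) was lower (5.34 against 7.29).

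ID3 had 654 and 1382 in CD10+ M1B26, 1258 and 1765 in CD10+ MC26, and 332 and 693 in CD10+ MCF10A-CT cells. CD10- cells had 562 and 859 in M1B26, 1784 and 1613 in MC26, and 347 and 699 in MCF10A-CT. Unsorted cells had 143 and 1461 in M1B26, 80.6 and 2860 in MC26, and 212 and 442 in MCF10A-CT. All 4 sorted MC26 arrays lay above all 4 sorted MCF10A-CT arrays, while the lowest of the 18 arrays was an unsorted MC26 one. The average difference of 0.69 ± 0.69 in M1B26 (adjusted p = 0.464) and 1.36 ± 0.69 in MC26 (adjusted p = 0.146) did not pass. Leaving out each array in turn, the MC26 difference ranged from 0.50 to 2.21, the highest being that without unsorted MC26 replicate 1. Averaged over the sorted populations, it was 1.71 ± 0.84 (adjusted p = 0.123). That SE and p came from the fit of all 18 arrays, so the spread of the unsorted arrays entered them. With only the arrays compared, ID3 passed in CD10+ MC26 (1.63, adjusted p = 0.0224) and CD10- MC26 cells (1.78, adjusted p = 0.0284).

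ID4, the fourth member of the family, lay close to background, between 6.51 and 29.3 over the 18 arrays. Its probe set is of a type that can bind related transcripts, and the other 4 ID4 probe sets were under the filter. The averages of -0.47 ± 0.28 in M1B26 and -0.35 ± 0.28 in MC26 did not pass (adjusted p = 0.203 and 0.365).

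SMAD6, which blocks BMP type I receptor signalling, had 27.1 and 37.3 in CD10+ M1B26, 15.1 and 51.6 in CD10+ MC26, and 4.23 and 3.09 in CD10+ MCF10A-CT cells. CD10- cells had 13.0 and 1.82 in M1B26, 28.3 and 51.4 in MC26, and 7.03 and 7.65 in MCF10A-CT. Unsorted cells had 12.2 and 28.8 in M1B26, 11.7 and 174 in MC26, and 8.79 and 1.64 in MCF10A-CT. All 6 MC26 arrays lay above all 6 MCF10A-CT arrays, and on this probe set SMAD6 was near background in all 3 MCF10A-CT groups and in CD10- M1B26 cells, so the sizes of its differences are uncertain. In a fit with no filter on low values, chosen after the values were seen, the MC26 average was 2.70 ± 0.60 (adjusted p = 0.00624), 1 of 3 members called of 10, where 17.4% of 19775 genes passed. The M1B26 average was 1.46 ± 0.60 and did not pass (adjusted p = 0.104). SMAD6 in CD10+ M1B26 cells, above both MCF10A-CT arrays, differed by 2.83 ± 1.04 (adjusted p = 0.0829).

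The other 3 SMAD6 probe sets, all under the filter, did not show these differences. In the same fit their MC26 averages were 0.18 ± 0.62, -0.21 ± 0.50 and 0.35 ± 0.49 (adjusted p = 0.895, 0.846 and 0.71), and their M1B26 averages were -0.57 ± 0.62, -0.02 ± 0.50 and -0.86 ± 0.49 (adjusted p = 0.595, 0.983 and 0.255). The one with the next highest mean had 32.5 and 1.26 in CD10+ M1B26, 11.7 and 27.5 in CD10+ MC26, and 20.1 and 25.2 in CD10+ MCF10A-CT cells. On it CD10+ MCF10A-CT and CD10- M1B26 cells were not near background, and MC26 overlapped MCF10A-CT among CD10+ and unsorted cells. The higher SMAD6 intensity of MC26 thus rested on 1 of 4 probe sets. That probe set was chosen by its mean over all arrays, to which its MC26 values contributed. Its median was under that of the one with the next highest mean (12.6 against 14.2).

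SMAD7, which recruits SMURF ubiquitin ligases to receptors, lay between 108 and 198 in M1B26, between 101 and 283 in MC26 and between 95.0 and 137 in MCF10A-CT. The highest value was that of unsorted MC26 replicate 2, whose partner had the lowest value of its line. The averages were 0.33 ± 0.20 in M1B26 (adjusted p = 0.224) and 0.46 ± 0.20 in MC26 (adjusted p = 0.0952). Leaving out each array in turn, the MC26 average ranged from 0.22 to 0.71, the highest being that without unsorted MC26 replicate 1.

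BAMBI, a pseudoreceptor that lacks a kinase domain and is itself a BMP target, was lower in M1B26 than in MCF10A-CT. It had 74.8 and 85.9 in CD10+ M1B26, 129 and 185 in CD10+ MC26, and 170 and 302 in CD10+ MCF10A-CT cells. CD10- cells had 119 and 143 in M1B26, 156 and 148 in MC26, and 184 and 395 in MCF10A-CT. Unsorted cells had 91.1 and 105 in M1B26, 137 and 286 in MC26, and 180 and 110 in MCF10A-CT. M1B26 lay under MCF10A-CT in each population without overlap, and CD10+ M1B26 cells had the 2 lowest values of all 18 arrays. BAMBI fell by 1.02 ± 0.23 on average in M1B26 (2.02-fold lower, adjusted p = 0.00433), a call that held without any 1 array, and by 1.49 ± 0.40 among CD10+ cells (adjusted p = 0.0151). The CD10+ call was lost without MCF10A-CT replicate 2 (-1.07) and without either M1B26 array (-1.39 and -1.58). Among CD10- cells the BAMBI differences of -1.04 ± 0.40 in M1B26 (adjusted p = 0.0673) and -0.82 ± 0.40 in MC26 (adjusted p = 0.159) did not pass, but each passed without MCF10A-CT replicate 1 (-1.59 and -1.37). In MC26 the average was -0.29 ± 0.23 (adjusted p = 0.362), and the difference between M1B26 and MC26 was -0.72 ± 0.23 (adjusted p = 0.0708), passing without unsorted MC26 replicate 1 (-0.90, adjusted p = 0.0216).

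FSTL1, a secreted glycoprotein known from mouse lung as an antagonist of BMP4, was higher in M1B26 and MC26 than in MCF10A-CT, and higher in M1B26 than in MC26. It had 1956 and 1700 in CD10+ M1B26, 599 and 623 in CD10+ MC26, and 282 and 372 in CD10+ MCF10A-CT cells. CD10- cells had 656 and 599 in M1B26, 517 and 500 in MC26, and 218 and 314 in MCF10A-CT. Unsorted cells had 585 and 737 in M1B26, 298 and 382 in MC26, and 241 and 243 in MCF10A-CT. In each population every M1B26 array lay above every MC26 array and every MC26 array above every MCF10A-CT array. The average difference was 1.73 ± 0.13 for M1B26 (3.31-fold, adjusted p = 6.03e-07), 0.78 ± 0.13 for MC26 (1.72-fold, adjusted p = 0.000653) and 0.95 ± 0.13 between M1B26 and MC26 (1.93-fold, adjusted p = 0.000457), and all 3 held without any 1 array. The other FSTL1 probe sets were under the filter and were not fitted. The one with the higher mean had 3.76 and 1.87 in CD10+ and 13.1 and 27.1 in CD10- M1B26 cells. The lower had 23.2 and 25.0 in CD10+ M1B26 cells and was near background in every other group. The FSTL1 differences thus rested on 1 probe set.

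By population FSTL1 passed in 5 of 6 comparisons with MCF10A-CT. Among CD10+ cells it rose by 2.49 ± 0.22 in M1B26 (5.62-fold, adjusted p = 5.56e-06) and by 0.91 ± 0.22 in MC26 (adjusted p = 0.0165). Among CD10- cells the increases were 1.25 ± 0.22 in M1B26 (adjusted p = 0.00166) and 0.95 ± 0.22 in MC26 (adjusted p = 0.00978). Unsorted cells differed by 1.44 ± 0.22 in M1B26 (adjusted p = 0.00485) and by 0.48 ± 0.22 in MC26 (adjusted p = 0.626). Leaving out 1 array ended the call in CD10+ MC26 cells for MCF10A-CT replicate 1 (0.71) and either MC26 array (0.94 and 0.88), in CD10- MC26 cells for MCF10A-CT replicate 1 (0.69) and MC26 replicate 1 (0.93), and in unsorted M1B26 cells for M1B26 replicate 2 (1.27) and MCF10A-CT replicate 2 (1.44).

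**Figure D2:**
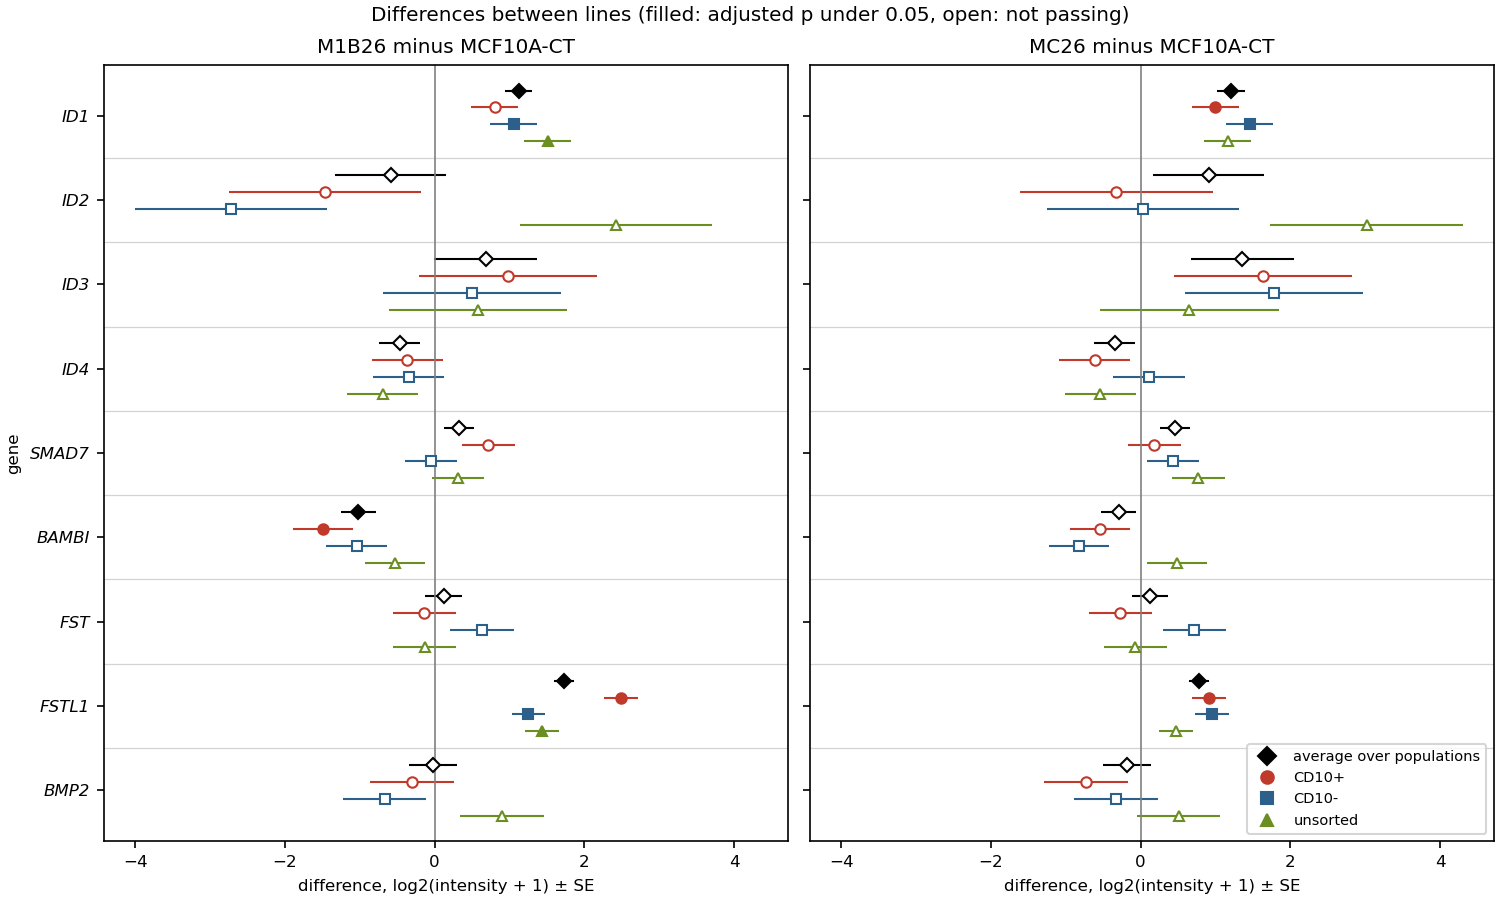
Differences of M1B26 (left) and MC26 (right) from MCF10A-CT in log2(intensity + 1) for the 9 tested genes, as the average over populations and within CD10+, CD10- and unsorted cells, with SE bars and filled symbols where the adjusted p was under 0.05. FSTL1 reaches 2.49 in CD10+ M1B26 cells, BAMBI lies at -1.49 there, and the ID2 values spread from -2.72 to 3.02.

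FST, which encodes follistatin, a secreted binder of activins and of some BMPs, was called in no comparison. It lay between 22.04 and 56.0 in M1B26, between 27.4 and 50.8 in MC26 and between 22.6 and 47.7 in MCF10A-CT, and the 3 ranges overlapped. The average difference was 0.12 ± 0.24 in both M1B26 and MC26 (adjusted p = 0.733 and 0.732), with 95% intervals from -0.40 to 0.64 and from -0.39 to 0.64. A second FST probe set gave 0.01 and -0.24 (adjusted p = 0.987 and 0.543).

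BMP2, the transcript of the ligand that was also given as protein to both exposed lines, lay between 30.5 and 63.8 in M1B26, between 30.7 and 81.8 in MC26 and between 13.6 and 106 in MCF10A-CT. The MCF10A-CT arrays held both the highest and the lowest value. The averages were -0.02 ± 0.32 in M1B26 and -0.18 ± 0.32 in MC26 (adjusted p = 0.964 and 0.704), with 95% intervals from -0.71 to 0.66 and from -0.87 to 0.50. Its second probe set gave -0.08 and -0.37, neither of which passed (adjusted p = 0.856 and 0.379).

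Population by population, the members called in M1B26 against MCF10A-CT were FSTL1 and BAMBI among CD10+ cells, where 26.4% of all genes passed, and ID1 and FSTL1 among CD10- cells, where again 26.4% did, and among unsorted cells, where 0.674% did. In MC26 they were ID1 and FSTL1 among CD10+ cells (13.5% of all genes) and among CD10- cells (20.0%), and none among unsorted cells (0.320%). In the unsorted MC26 comparison limma called 39 genes at the threshold and 972 at an unadjusted p under 0.05.

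The comparison of CD10+ with CD10- cells asked whether the members follow membrane CD10 within a line. FSTL1 was higher in CD10+ than in CD10- M1B26 cells by 1.54 ± 0.22 (2.91-fold, adjusted p = 0.000527), 1 of 9 members where 6.50% of all genes passed, and this held without any 1 array. Its other probe sets, under the filter and not fitted, went in opposite directions here. In MC26 and MCF10A-CT no member passed, and 0% of all genes did (100 and 166 genes at an unadjusted p under 0.05 with limma, 21 and 78 past the threshold with pairing). There FSTL1 differed by 0.26 ± 0.22 in MC26 and 0.31 ± 0.22 in MCF10A-CT. The CD10 difference of M1B26 minus that of MCF10A-CT was 1.23 ± 0.32 for FSTL1 (adjusted p = 0.0768), with no member passing where 1.38% of all genes did, and the same contrast for MC26 called 0% of all genes (83 at an unadjusted p under 0.05, 16 past the threshold with pairing).

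The deviations of same-numbered CD10+ and CD10- arrays correlated at 0.184 in M1B26, 0.361 in MC26 and 0.635 in MCF10A-CT. A fit of the sorted arrays that took this pairing into account called more members. In M1B26, ID2 rose by 1.38 ± 0.21 (adjusted p = 1.1e-09), SMAD7 by 0.59 ± 0.22 (adjusted p = 0.0417) and FSTL1 by 1.54 ± 0.20 (adjusted p = 6.69e-13), and BAMBI fell by 0.70 ± 0.22 (adjusted p = 0.0106), 4 of 9 members where 21.1% of all genes passed. For the CD10 difference of M1B26 minus that of MCF10A-CT, FSTL1 (1.23 ± 0.28, adjusted p = 0.000339) and ID2 (1.25 ± 0.30, adjusted p = 0.000558) passed, 2 of 9 members where 11.5% of all genes did. On the second ID2 probe set neither passed in the same paired fit, chosen after the values were seen (0.30 ± 0.30, adjusted p = 0.552, and 0.62 ± 0.42, adjusted p = 0.429). This fit had 3 residual degrees of freedom and took its spread wholly from the trend over all genes, so its p-values assume that the members varied like other genes of their intensity. Without MCF10A-CT CD10- replicate 1, the unpaired difference of differences of FSTL1 was 1.50 (adjusted p = 0.035).

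**Figure D3:**
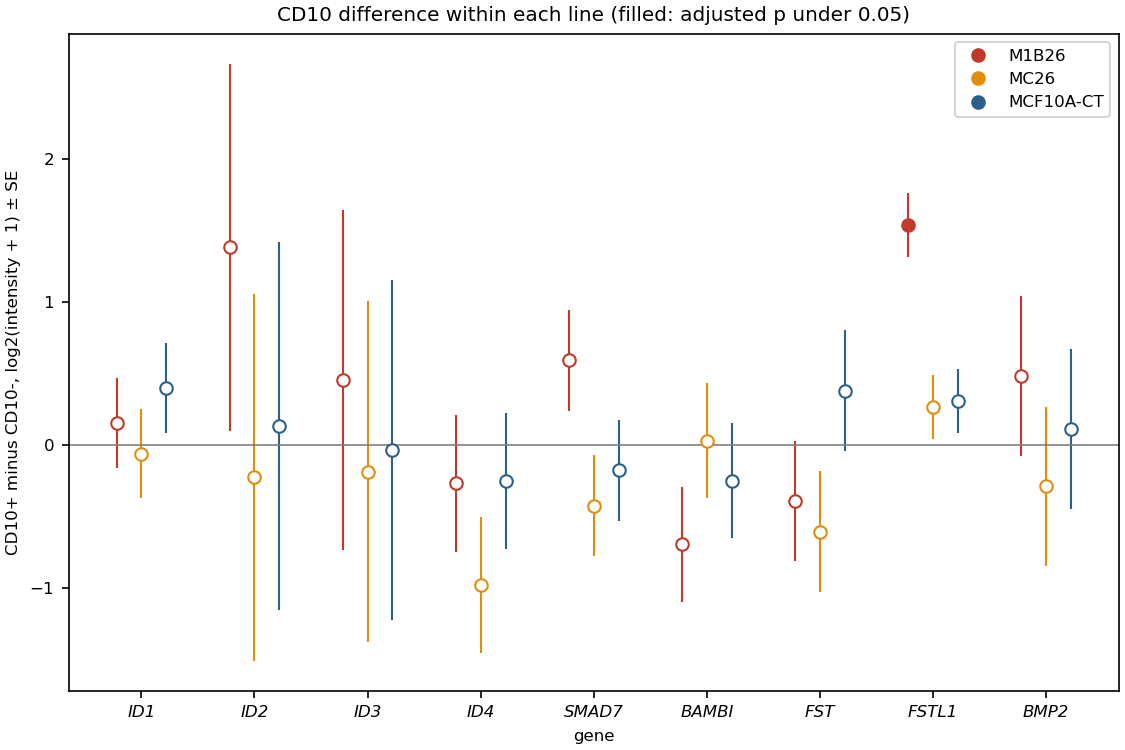
CD10+ minus CD10- difference in log2(intensity + 1) with SE for the 9 tested genes in M1B26, MC26 and MCF10A-CT, in the fit without pairing. The only filled symbol is FSTL1 in M1B26 at 1.54.

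CD10+ M1B26 cells also differed from every other group in markers of cell type. Over 12 mesenchymal and fibroblast markers the summed intensity was 25140 to 27062 in CD10+ M1B26 cells and 5141 to 9403 in the other 8 groups, with PDGFRA and PDGFRB near background in all 9 groups. Of 8 such markers tested, 6 rose and 2 did not pass between CD10+ and CD10- M1B26 cells, while of 5 tested epithelial markers 1 rose and 4 fell. Of all tested genes 6.50% passed there. The epithelial sum was 4826 to 5112 in CD10+ M1B26 cells and 6562 to 11240 elsewhere. The part of these markers in the FSTL1 and BAMBI differences was not tested, and in bulk RNA fewer cells of a type and less RNA per cell cannot be told apart. These markers differed between the lines too. On average 6 of the 8 mesenchymal markers rose and 3 of the 5 epithelial markers fell in M1B26 against MCF10A-CT, and in MC26 1 mesenchymal marker rose, 3 fell, and 3 epithelial markers fell. In these averages 34.6% of all tested genes passed in M1B26 and 31.2% in MC26. Among CD10- M1B26 cells, where FSTL1 also passed, 2 mesenchymal markers rose and 2 epithelial markers fell, where 26.4% of all genes passed. The part of these markers there was likewise not tested.

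Other genes of the pathway were taken from lists by role. In the averages against MCF10A-CT, 27.0% of all tested genes rose and 7.61% fell in M1B26, and 19.7% rose and 11.5% fell in MC26. Of 4 tested BMP ligands and related factors out of 13, none passed in M1B26 and 2 fell in MC26, the protease BMP1 (-1.20 ± 0.17, adjusted p = 0.000212) and the activin subunit INHBA (-1.47 ± 0.49, adjusted p = 0.0335). Among 8 tested receptors and co-receptors, 2 rose and 1 fell in M1B26, and 1 rose and 1 fell in MC26. The BMP co-receptor RGMA fell by 1.10 ± 0.20 in M1B26 and 0.97 ± 0.20 in MC26, RGMB rose by 0.48 ± 0.16 and 0.50 ± 0.16, and ENG, a co-receptor of the TGF-beta family, rose in M1B26 by 0.75 ± 0.15. BMPR2, the type II receptor, differed by 0.35 ± 0.15 in M1B26 and did not pass (adjusted p = 0.0759).

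All 6 SMADs and ubiquitin ligases were tested. SMURF2, an E3 ligase of receptors and SMADs, rose by 1.15 ± 0.16 in M1B26 (adjusted p = 0.000138) and by 0.73 ± 0.16 in MC26 (adjusted p = 0.00323), and SMAD4 rose by 0.43 ± 0.11 in M1B26 (adjusted p = 0.00771). The receptor SMADs 1, 5 and 9 did not pass in either line. Of 6 tested extracellular antagonists and modulators out of 16, 2 rose and 2 fell in M1B26, and 1 fell in MC26. Among all tested genes 34.6% passed in M1B26 and 31.2% in MC26. NOG, the BMP antagonist noggin, fell by 1.23 ± 0.33 in M1B26 (adjusted p = 0.0102), NBL1 fell by 0.59 ± 0.16 in M1B26 and 0.58 ± 0.16 in MC26, and CRIM1 and TWSG1 rose in M1B26 by 0.73 ± 0.14 and 0.41 ± 0.11.

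Among 11 tested BMP-responsive genes out of 13, 5 rose and 1 fell in M1B26, and 3 rose and 1 fell in MC26. Of all tested genes 27.0% rose and 7.61% fell in M1B26, and 19.7% rose and 11.5% fell in MC26. The median of the BMP-responsive list was 0.66 in M1B26 and 0.34 in MC26, beside 0.19 and 0.08 for all tested genes. The homeobox genes MSX2 and MSX1 rose in both lines, MSX2 by 1.08 ± 0.19 in M1B26 and 0.93 ± 0.19 in MC26, and MSX1 by 0.66 ± 0.14 and 0.63 ± 0.14. TBX3, a T-box repressor, rose by 1.26 ± 0.27 in M1B26 (adjusted p = 0.00293) and by 2.57 ± 0.47 in CD10+ over CD10- M1B26 cells (adjusted p = 0.00286). In that CD10 comparison 2 of the 11 genes rose and none fell, where 6.50% of all tested genes passed. GATA3, a luminal factor, fell by 0.49 ± 0.15 in M1B26 and 0.62 ± 0.15 in MC26. Of the 3 E proteins bound by ID proteins, TCF4 rose in M1B26 by 0.57 ± 0.17 (adjusted p = 0.0189), and TCF3 and TCF12 passed in neither line.

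**Figure D4:**
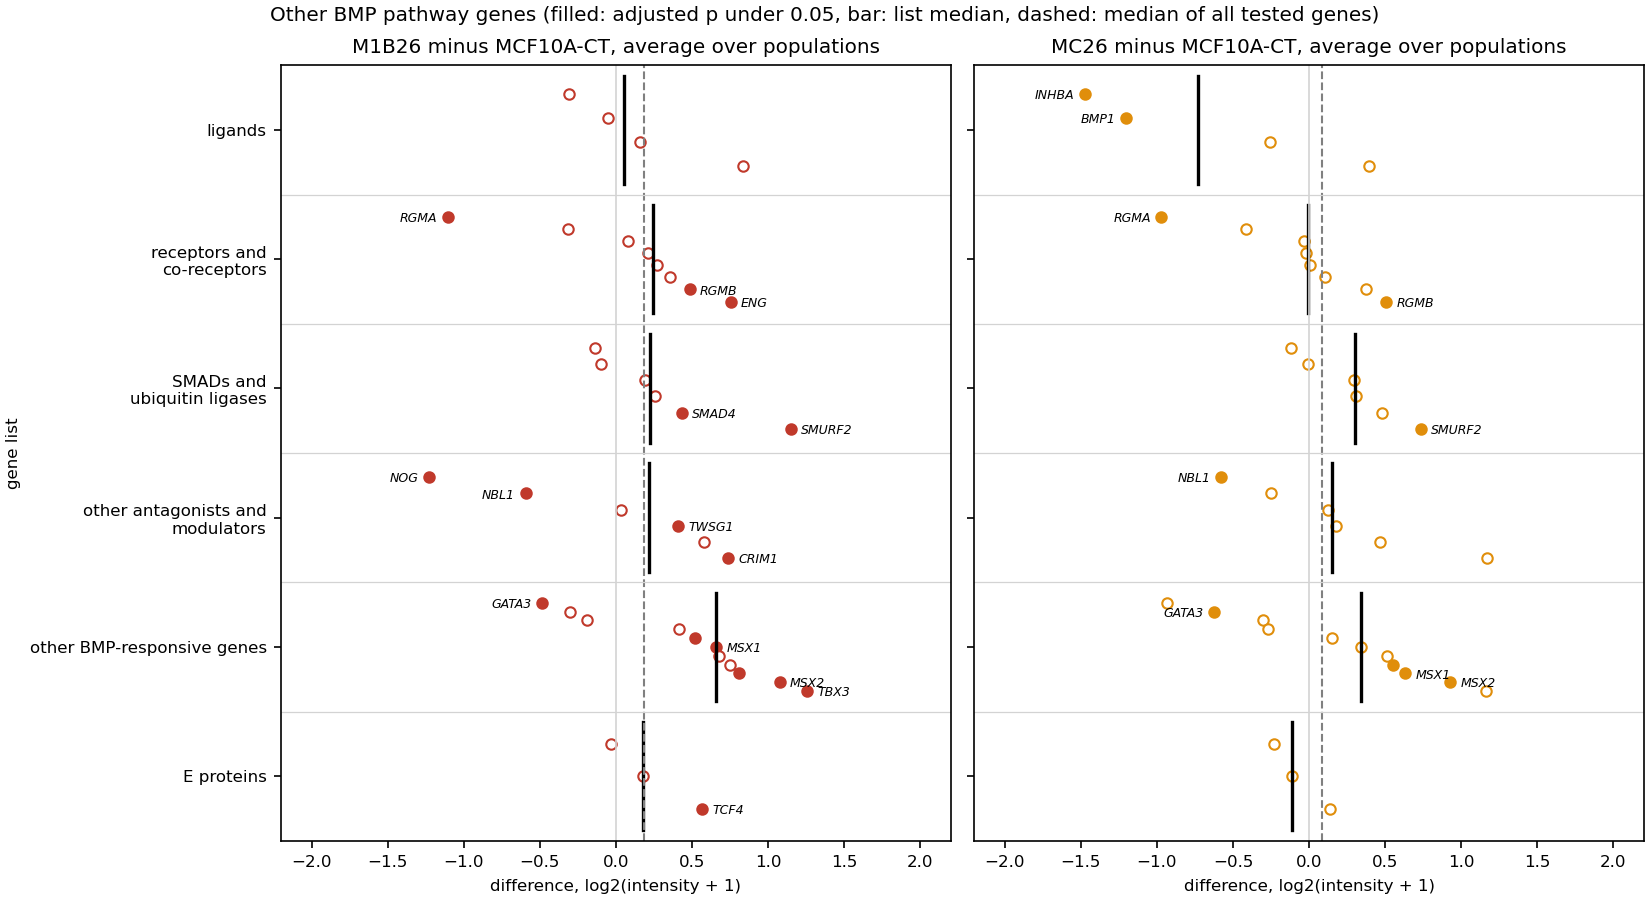
Average difference from MCF10A-CT in log2(intensity + 1) of other BMP pathway genes in M1B26 (left) and MC26 (right), 1 point per tested gene by list, filled where the adjusted p was under 0.05, with a black bar at the list median and a dashed line at the median of all tested genes. The BMP-responsive list has the highest median in both panels, 0.66 in M1B26 and 0.34 in MC26.

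Over the 9 group means, which share lines and sorts, ID1 and ID3 correlated at 0.732, ID2 and BMP2 at 0.828 and BAMBI and FSTL1 at -0.815. The tested genes most like ID1 over these means were RCAN3 (0.975), PIN1P1 and STEAP2, and those most like FSTL1 were TPST1 (0.984), LINC01127 and CCDC33. For ID3 they were CLCC1 (0.96), RHOC and USP47, for SMAD7 NMNAT1 (0.946), RTF2 and NUCB2, for FST MTM1 (0.888), CDH15 and PINX1, and for BMP2 SEZ6L2 (0.974), ITPKC and DGKQ. These correlations over 9 points are given as a description.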

How the data were processed

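RNA of 18 cell samples was hybridised to Affymetrix HG-U133 Plus 2.0 arrays. Per the labels, the authors used MAS5 in Affymetrix Expression Console (versions not given) to summarise each probe set. The deposited values were linear intensities with a median of 16.65 on every array and upper quartiles of 95.1 to 123.6, so they were not quantile normalised, although the methods name RMA. Groups came from the labels.

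Of 54675 probe sets, 41091 had 1 gene, 1801 several and 11721 none. The probe set with the highest mean log2(intensity + 1) stood for each of 19775 genes, and 12171 genes above the median of all probe set means (intensity 14.3) were tested. Group means of all 18 arrays were fitted in R 4.3.3 with limma 3.58.1 (trended eBayes, 9 residual and 6.28 prior degrees of freedom). Tests were two-sided, with Benjamini-Hochberg adjustment within each comparison. The script was tested on simulated data. Same-numbered sorted arrays of a line were paired because their deviations correlated above 0.1 in all 3 lines, a choice made on these data. Of the other 33 pairs of groups, 5 also correlated above 0.1 and were not paired. The number of arrays limits the precision.

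All 10 members were named. Other pathway genes were named from lists, up to 4 a list with the smallest p in the averages against MCF10A-CT. BMPR1B, MME and the 3 genes most like 6 of the members were also named. The members and lists were chosen with earlier results of these data known. Alternatives were quantile normalisation, centring, another pseudocount, no filter, other probe sets, replicate blocks, an unmoderated test, only the arrays compared, and leaving out each array.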

Additional observations from a re-analysis of the deposited data

Results flagged for a closer look

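With same-numbered sorted arrays paired, the difference between CD10+ and CD10- cells was called larger in M1B26 than in MCF10A-CT for ID2 and FSTL1. Tested as a difference of differences, it was 1.25 ± 0.30 for ID2 (limma, adjusted p = 0.000558) and 1.23 ± 0.28 for FSTL1 (adjusted p = 0.000339). That fit had 3 residual degrees of freedom and took its spread wholly from the trend over all genes, not from each gene's own arrays. For ID2 the CD10+ array was the higher one in both M1B26 pairs and in both MCF10A-CT pairs, and without pairing the adjusted p was 0.9. On the second ID2 probe set the difference of differences was 0.62 ± 0.42 with pairing (adjusted p = 0.429) and 0.62 ± 1.84 without it (adjusted p = 0.968), with CD10+ higher in 1 of 2 M1B26 pairs (35.4 against 21.6, and 26.7 against 28.5) and lower in both MCF10A-CT pairs (34.1 against 39.7, and 111 against 150), so the ID2 result rested on 1 probe set. For FSTL1 the CD10+ array was likewise higher in both pairs of both lines, and without pairing the adjusted p was 0.0768. The other FSTL1 probe sets, under the filter, were not fitted.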

How the results depend on the processing

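The calls of ID1 and FSTL1 in both averages against MCF10A-CT and of BAMBI in M1B26 held under every alternative run for them. No other probe set of these genes was fitted. The other values depended on the setting. Over the sorted arrays alone, added after the data were seen, ID2 in MC26 averaged -0.14, and between M1B26 and MC26 SMAD7 differed by 0.028 and FST by 0.026. The second FST probe set gave -0.24 in MC26 and 0.25 between M1B26 and MC26, centring gave -0.079 for FST in M1B26, and a pseudocount of 16 gave 0.0028 for FST between M1B26 and MC26. Among CD10- MC26 cells ID2 was -0.17 after quantile normalisation and -0.12 after centring, and its second probe set gave 0.55 among CD10+ MC26 cells and CD10 differences of 0.063 in MC26 and -0.32 in MCF10A-CT. Of the single-population ID1 calls, quantile normalisation ended those in CD10- M1B26 (0.73, adjusted p = 0.107) and unsorted M1B26 (1.39, adjusted p = 0.0822), and centring that in CD10- M1B26 (0.81, adjusted p = 0.0595). BAMBI passed in CD10- M1B26 after quantile normalisation (-1.28, adjusted p = 0.0406) and centring (-1.29, adjusted p = 0.0381). With only the arrays compared, FSTL1 did not pass in CD10- MC26 (adjusted p = 0.0756) or CD10+ MC26 (adjusted p = 0.0596), whereas ID3 did in both (1.78, adjusted p = 0.0284, and 1.63, adjusted p = 0.0224). The other SMAD6 probe sets gave -0.21 in MC26 for 1 of 3, and -0.57, -0.024 and -0.86 in M1B26, with no call.

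Members passing between M1B26 and MC26 were 2 with a replicate block or only the arrays compared. In unsorted M1B26 1 passed after quantile normalisation, with no filter or unmoderated. In CD10- M1B26 4 passed with a replicate block and 1 unmoderated, in CD10+ MC26 1 with no filter, with a replicate block or unmoderated, and in CD10+ M1B26 1 unmoderated and 4 with only the arrays compared. With the pairing as a replicate block on sorted arrays 4 passed for CD10 in M1B26 and 2 for its difference from MCF10A-CT, 1 with a random block. Over the other 33 pairs of groups the correlations ran from -0.2 to 0.458, the highest between unsorted M1B26 and unsorted MC26, with 5 above 0.1, and numbers were not taken to pair them.

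Genes passing changed by over 1.5 times to 617 between M1B26 and MC26 with a random block (985 as reported). Unmoderated and with only the arrays compared they were 9 and 13 in unsorted MC26 (39), 15 and 142 in unsorted M1B26 (82), and 1527 and 988 in CD10- MC26 (2431). They were 1746 in CD10- M1B26 with only the arrays compared (3218) and 732 in CD10+ MC26 unmoderated (1639). The pairing gave 2564 for CD10 in M1B26 (791), 21 in MC26 and 78 in MCF10A-CT (0 each), and 1404 for M1B26 (168) and 16 for MC26 (0) in the differences from MCF10A-CT, with 260 under a random block and 46 unmoderated for M1B26.

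Leaving out 1 array, the members passing numbered 2 to 5 for MC26 against MCF10A-CT on average (5 without unsorted MC26 replicate 1), 1 to 3 for M1B26 against MC26 on average, 0 to 3 for unsorted MC26 against MCF10A-CT cells, 0 to 1 for unsorted M1B26 against MCF10A-CT cells, 0 to 2 for CD10- MC26 against MCF10A-CT cells, 1 to 3 for CD10- M1B26 against MCF10A-CT cells, 0 to 1 for CD10+ MC26 against MCF10A-CT cells, 1 to 2 for CD10+ M1B26 against MCF10A-CT cells and 0 to 1 for the CD10 difference in M1B26 minus that in MCF10A-CT. Differences that changed sign had these ranges. For MC26 against MCF10A-CT on average they were ID2 -0.025 to 1.85, BMP2 -0.45 to 0.087. For M1B26 against MCF10A-CT on average they were FST -0.058 to 0.30, BMP2 -0.29 to 0.25. For M1B26 against MC26 on average they were ID1 -0.26 to 0.0896, ID3 -1.53 to 0.19, ID4 -0.33 to 0.0904, SMAD7 -0.38 to 0.11, FST -0.18 to 0.17, BMP2 -0.018 to 0.34. For unsorted MC26 against MCF10A-CT cells they were ID3 -1.91 to 3.22, BAMBI -0.039 to 1.02. For unsorted M1B26 against MCF10A-CT cells they were ID3 -1.09 to 2.25. For CD10- MC26 against MCF10A-CT cells they were ID2 -0.95 to 1.02. For CD10- M1B26 against MCF10A-CT cells they were ID3 -0.0092 to 1.00, SMAD7 -0.15 to 0.0498. For CD10+ MC26 against MCF10A-CT cells they were ID2 -1.54 to 0.89, SMAD7 -0.062 to 0.43. For CD10+ minus CD10- in MCF10A-CT they were ID2 -0.44 to 0.70. For CD10+ minus CD10- in MC26 they were ID2 -1.44 to 0.99. A group left with 1 array was assumed to vary like the others.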

Other observations

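ID2 was higher on replicate 2 than on replicate 1 in 9 of 9 groups, by 1.79 on the log2 scale on average (limma, adjusted p = 0.319), and ID3 in 8 of 9 groups, by 1.51 (adjusted p = 0.323). Neither passed. Over all 12171 genes 0 passed for the replicate number, and 1127 had an unadjusted p under 0.05. What the replicate numbers share across groups was not tested.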
